A study of Mus musculus with 3 samples.

Results

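The genes described here are the interferon-stimulated genes of a list of 44 mouse genes, chosen by name and matched by symbol to the rows of a single-cell count table. Of the 44, 43 were among the 14721 genes of the table, and Mx2 was not analysed here. A gene is called measured below when its mean over the 3 libraries was at least 5 unique molecular identifiers (UMIs, the tags that mark single captured transcripts) per 1000000 UMIs, written as CPM, and 34 of the 43 were. The table holds Chromium 3' v2 libraries of LSK cells sorted from mouse bone marrow, a gate for cells with Sca-1 and Kit and without lineage antigens, in which blood stem cells and early progenitors lie. There was 1 library per genotype: WT is Spop(+/+) Myd88 (+/+), KO is Spop(D/D) Myd88(+/+) and DKO is Spop(D/D) Myd88(-/-). Both KO and DKO therefore carry the deleted Spop allele. The study asked how SPOP, the substrate receptor of a ubiquitin ligase, acts on blood formation through MyD88, which relays signals of Toll-like receptors. The Cre driver, the ages and the number of animals behind each library are not given in the sources used here.

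Interferons are secreted proteins that signal cells to resist infection. Type I and type III interferons activate the JAK1 and TYK2 kinases and a complex with STAT2 and IRF9 that binds the interferon-stimulated response element, whereas interferon gamma acts through gamma-activated sites. The induced genes encode antiviral effectors, sensors of foreign nucleic acid, GTPases that attack vacuoles holding pathogens, and transcription factors and inhibitors that feed back on the pathway. Stem cells are known to hold part of this program at a basal level and to leave quiescence under acute interferon.

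No genotype was replicated (1 library each), so no test between genotypes was made. Intervals are exact 95% intervals of counting error only. The WT library held 8147 cells and 85700749 UMIs, KO 4920 cells and 101393024 UMIs, and DKO 8184 cells and 109920419 UMIs, with medians of 9245, 17319 and 12404.5 UMIs per cell. Depth per cell, sex and any library effect cannot be told apart from genotype: the X-inactivation transcript Xist stood at 0.187 CPM in WT, against 0 in KO and 1537 in DKO. Myd88 stood at 13.7, 25.8 and 4.47 CPM and Spop at 70.7, 63.1 and 77.1, and the 3' tags of Spop do not test its deletion. The sort genes Ly6a (Sca-1) and Kit were present in each library, at 90.4, 85.1 and 89.5 CPM and at 94.8, 41.5 and 65.9 CPM. Libraries shared few cell barcodes (46 between WT and KO, 54 between KO and DKO, 83 between WT and DKO). Cells were clustered without the interferon genes and named "-like" from markers. Several clusters came almost wholly from 1 library and may be that library and not a type.

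Windows around the start sites of members were searched for the cores of the elements named above. Of the 44 listed genes, 33 were matched to RefSeq promoter windows (250 bases before to 50 after each start, GRCm38.p6). The core of the response element, 2 runs of TTTC with 2 free bases between them, searched on both strands, lay in a window of 20 of the 33 genes (60.6%), against 3.96% of 10731 genes of the count table and 3.44% of all 32851 windows. It was found for 8 of 11 antiviral effectors, 5 of 6 GTPases, 3 of 3 sensors, 3 of 9 other members and 1 of 4 genes in the transcription factor and feedback group. The core of a gamma-activated site, TTCNNNGAA, which reads the same on both strands, lay in windows of 8 of 33 members (24.2%), against 8.40% of the genes of the count table. Of the 3 sensors, the match lay before the start in Ifi203 and after it in Ddx58 and Ifih1. In Bst2 a match of each core overlaps the other. A match describes the letters and is neither a bound site nor a cause.

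Stretches of 6 members are shown because they carry these cores and belong to genes on which the results below turn. Capitals mark the matched cores. The first 4 stretches hold the response element core, which occurs in Isg15 as 3 overlapping matches on the reverse strand and in Ifit1 as 2 separate ones. The last 2 hold TTCNNNGAA.
Isg15 (chr4:156200855-156200916, minus strand): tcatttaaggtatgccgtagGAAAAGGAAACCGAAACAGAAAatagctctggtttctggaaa
Ifit1 (chr19:34640765-34640833, plus strand): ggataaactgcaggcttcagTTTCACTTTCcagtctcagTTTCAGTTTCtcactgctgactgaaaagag
Oas3 (chr5:120777705-120777754, minus strand): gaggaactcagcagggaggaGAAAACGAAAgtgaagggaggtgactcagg
Rsad2 (chr12:26456543-26456592, minus strand): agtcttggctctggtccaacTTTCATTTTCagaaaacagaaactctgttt
Irf1 (chr11:53769904-53769952, plus strand): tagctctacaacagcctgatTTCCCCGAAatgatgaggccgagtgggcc
Isg20 (chr7:78913331-78913379, plus strand): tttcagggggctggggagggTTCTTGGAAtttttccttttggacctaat

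Summed over whole libraries, the members were lowest in WT. Taken over the 43 genes, the level was 995 CPM in WT (988 to 1001), against 1175 in KO (1168 to 1181) and 1122 in DKO (1116 to 1129). That is 1.18-fold above the WT level in KO (1.17 to 1.19), 1.13-fold higher in DKO than in WT (1.12 to 1.14), and 0.955 times the KO level in DKO (0.948 to 0.963). The sum was carried by few genes: the tetherin gene Bst2 gave 14.9% of it in WT and the DNA sensor gene Ifi203 16.8%.

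In KO against WT, 9 of 34 measured members were at least 1.5-fold higher, where 7.56% of all 9114 measured genes were, and 2 were at least 1.5-fold lower, where 17.7% were. The 9 were Ifit1, Isg15, Isg20, Oas3, Zbp1, Iigp1, Igtp, Irf7 and Slfn2, and the 2 were Irf1 and Ifi203. Slfn2, below 5 CPM in WT and DKO, counted as measured only through KO, where it is high, so its calls are no support. The median log2 KO/WT ratio of the members was 0.32, against -0.08 for all measured genes. Scaling by TMM moved the median of all genes to 0.07 and counted 14 members higher and 1 lower. In DKO against KO, which share the KO library with the comparison above, 3 members were higher (background 18.6%) and 6 lower (background 6.09%), with a member median of -0.06 against 0.14 for all genes. TMM put the all-gene median there at -0.06 and the counts at 0 higher and 9 lower. In DKO against WT, 5 were higher (background 3.87%) and 0 lower (background 3.34%), with a median of 0.32 against 0.06. No measured member was at least 2-fold higher or lower in DKO than in WT.

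**Figure D1:**
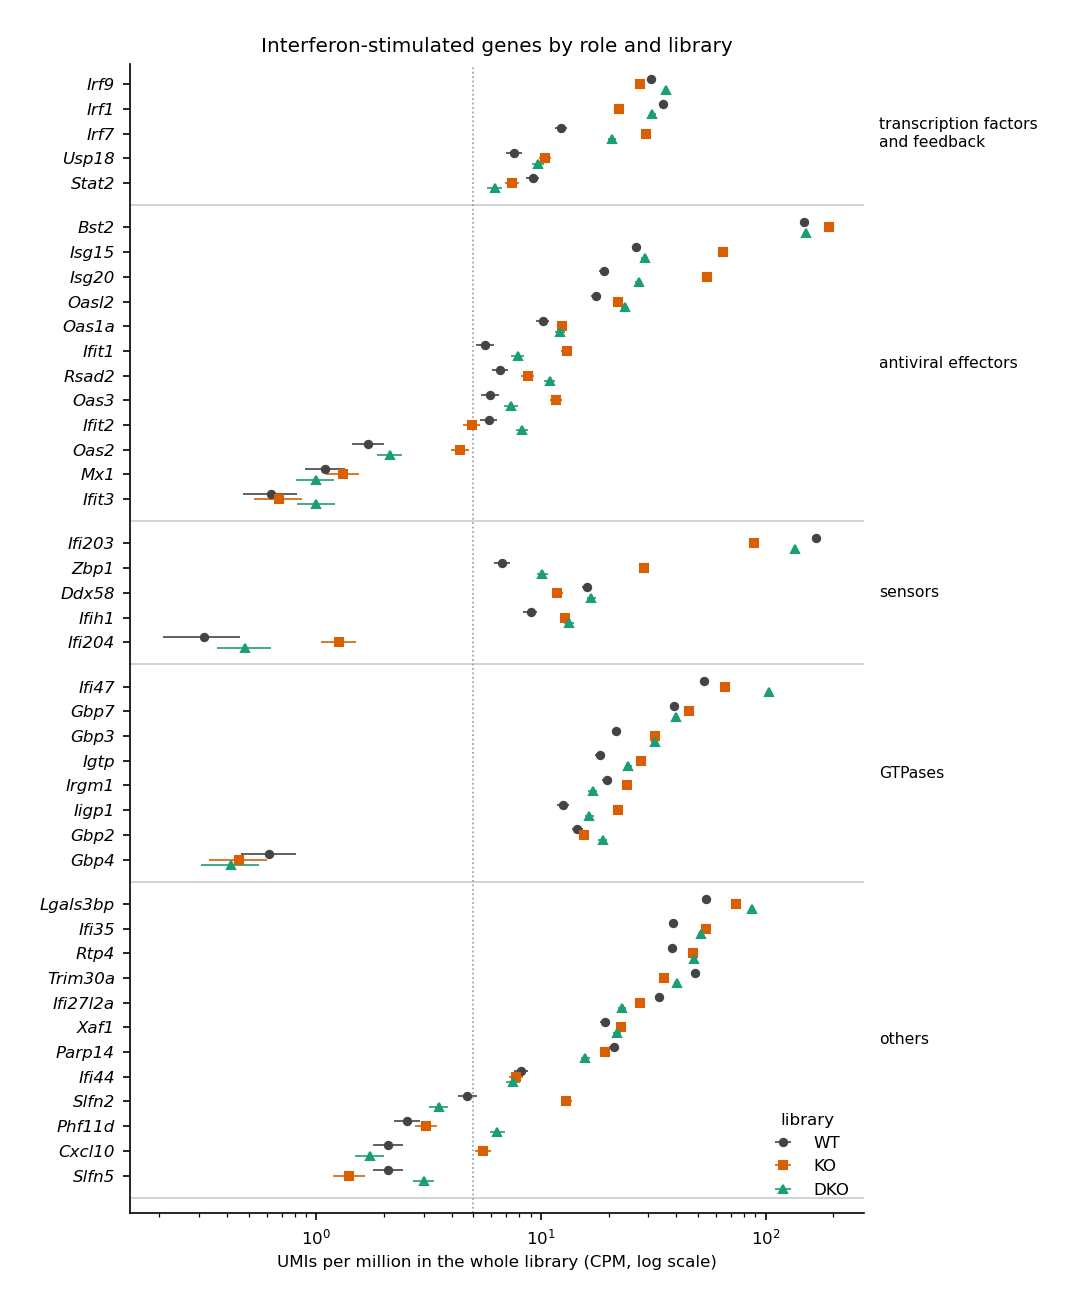
Level of each interferon-stimulated gene in the WT, KO and DKO libraries (CPM, log scale), ordered by mean level within its role. Bars are exact 95% Poisson intervals, the dotted line marks 5 CPM, and Ifit3b, with 0 UMIs in WT and KO, is left out. For Isg15, Isg20 and Zbp1 the KO point lies right of the WT and DKO points of the same gene, and for Ifi203 and Irf1 it lies left of them.

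Over whole libraries, the summed level of antiviral effectors differed most between KO and the other libraries. It was 249 CPM in WT, against 390 in KO and 282 in DKO, a KO/WT ratio of 1.56 (1.54 to 1.59). Without the globin-led cluster described below it was 249, 290 and 282 CPM. Sensors then stood at 199, 122 and 175 CPM, so effectors no longer differed most. Isg15, a ubiquitin-like protein that is attached to newly made proteins, stood at 26.4 CPM in WT, against 64.3 in KO and 29.0 in DKO. KO was 2.43-fold above WT (2.32 to 2.55) and DKO 2.22-fold below KO (2.13 to 2.32), so the DKO level lay close to that of WT. Isg20, an exonuclease for single-stranded RNA, stood at 19.1, 55.0 and 27.2 CPM, 2.89-fold above the WT level in KO (2.73 to 3.05). Ifit1, which binds viral RNA without the host cap, stood at 5.65, 13 and 7.89 CPM, 2.31-fold above the WT level in KO (2.08 to 2.56). Oas3, a synthetase of the second messenger that activates RNase L, stood at 5.93, 11.7 and 7.35 CPM. These 4 genes were above both other libraries in KO.

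Rsad2 and Ifit2 had another order. Rsad2, which encodes viperin, stood at 6.58 CPM in WT, against 8.71 in KO and 10.9 in DKO, and was highest in DKO, 1.66-fold above WT (1.5 to 1.84). Ifit2 stood at 5.85, 4.91 and 8.22 CPM and was 1.67-fold higher in DKO than in KO (1.5 to 1.87). Bst2, which holds budding virus at the cell surface, was the most abundant effector and was highest in KO, at 149, 192 and 151 CPM. Its KO/WT ratio was 1.29. Oasl2 (17.6, 22 and 23.5 CPM) and Oas1a (10.2, 12.4 and 12.2 CPM) were also within 1.5-fold in each comparison. Of the effectors below 5 CPM, Oas2 was also highest in KO, at 1.70, 4.35 and 2.12 CPM, and Mx1 and Ifit3 were at or below 1.31 CPM in every library. Ifit3b had 0 UMIs in WT and KO, which allows up to 0.0350 and 0.0296 CPM, and 0.146 CPM in DKO. Ifit3 and Ifit3b are near copies of each other, and reads of such copies, and of the Gbp and Ifi200 families, may have been split or lost in counting.

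The summed level of GTPases was 179 CPM in WT, against 234 in KO and 252 in DKO. At least 1.5-fold above WT were 2 of 7 measured members in KO (background 7.56%) and 1, Ifi47, in DKO (background 3.87%). Without the globin-led cluster the KO sum was 169 CPM. Iigp1, an immunity-related GTPase of pathogen vacuoles, stood at 12.5, 22.1 and 16.4 CPM, 1.76-fold above the WT level in KO (1.64 to 1.90). Igtp, of the same family, stood at 18.2, 28 and 24.4 CPM, 1.53-fold above the WT level in KO (1.44 to 1.63). Ifi47, another member of that family, had its highest level in DKO, at 53.0 CPM in WT, against 65.7 in KO and 103 in DKO. DKO was 1.95-fold above WT (1.88 to 2.02), the largest DKO/WT ratio among the measured members. The guanylate-binding protein genes Gbp7 (38.9, 45.7 and 39.8 CPM), Gbp3 (21.6, 32.1 and 32.1) and Gbp2 (14.5, 15.5 and 18.8) and the autophagy-linked Irgm1 (19.7, 24.2 and 16.9) stayed within 1.5-fold, and Gbp4 was below 1 CPM in every library.

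The nucleic acid sensors split. Zbp1, a sensor of Z-form nucleic acid that can trigger necroptosis, stood at 6.73 CPM in WT, against 28.6 in KO and 10.1 in DKO. Its 4.25-fold KO/WT ratio (3.89 to 4.65) was the highest among measured members. Ifi203, a DNA sensor of the AIM2-like family and the most abundant member in WT, stood at 167, 89.1 and 135 CPM, 1.87-fold lower in KO than in WT (1.82 to 1.92). The RNA helicase sensors Ifih1, which encodes MDA5 (8.97, 12.8 and 13.3 CPM), and Ddx58, which encodes RIG-I (16.0, 11.8 and 16.7 CPM), were within 1.5-fold. Ifi204 was at or below 1.26 CPM.

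Among transcription factors and feedback genes, Irf7, the factor that amplifies type I interferon production, stood at 12.2, 29.4 and 20.6 CPM. It was 2.41-fold higher in KO (2.24 to 2.58) and 1.68-fold higher in DKO (1.56 to 1.81) than in WT. Irf1, a factor induced mainly by interferon gamma and inflammatory signals, had the reverse order at 34.7, 22.2 and 31.3 CPM, 1.57-fold lower in KO than in WT (1.48 to 1.66). The response element factors Irf9 (30.8, 27.6 and 35.8 CPM) and Stat2 (9.16, 7.42 and 6.22 CPM) were within 1.5-fold. So was Usp18, which removes ISG15 and blocks the type I receptor, at 7.58, 10.4 and 9.70 CPM.

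Of the remaining members, Slfn2, a regulator of lymphocyte quiescence, stood at 4.70 CPM in WT, against 13 in KO and 3.5 in DKO, 2.76-fold above WT in KO and with DKO 3.70-fold below KO. Lgals3bp, a secreted galectin-binding glycoprotein, stood at 54.2, 73.4 and 87.2 CPM and was 1.61-fold higher in DKO than in WT (1.55 to 1.67). Trim30a (48.4, 35.4 and 40.1 CPM), Ifi35 (38.5, 54.0 and 51.7), Rtp4 (38.1, 47.7 and 48.2), Ifi27l2a (33.6, 27.6 and 22.9), Parp14 (21.0, 19.3 and 15.7), Xaf1 (19.3, 22.6 and 21.8) and Ifi44 (8.16, 7.75 and 7.51) were all within 1.5-fold. Below the 5 CPM mean, the chemokine gene Cxcl10 stood at 2.09, 5.52 and 1.73 CPM, Phf11d at 2.53, 3.07 and 6.4, and Slfn5 at 2.09, 1.4 and 3.01.

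Much of the KO excess lay in 1 cluster. It was an erythroid-like cluster led by the globin genes Hba-a1 and Hbb-bs, with the blood group gene Rhd among its top genes, and 987 of its 992 cells came from KO, 3 from WT and 2 from DKO. Hbb-bs stood at 79411 CPM in the 3 WT cells and 32094 in the 2 DKO cells, against only 1216 in the 987 KO cells. These 987 cells were 20.1% of KO cells and 15% of KO UMIs, and held 33.3% of the members' UMIs. Summed over the members, they stood at 2606 CPM (2581 to 2632), against 922 CPM in all other KO cells. That is 2.83-fold higher (2.79 to 2.86), and 22 of 26 members with a mean of at least 20 CPM over the pair were at least 1.5-fold higher and 0 lower, where 15.1% and 11.8% of all genes were. Of those 26, 14 passed that minimum only through the globin-led cells, where they are high, so the count is no support. Of the 12 members with at least 20 CPM in the other KO cells, a filter added after seeing the data, 8 were higher (background 9.73%) and 0 lower (background 15.9%): Gbp7, Ifi35, Ifi47, Irf9, Isg15, Lgals3bp, Rtp4 and Trim30a. The comparison is within 1 library and the cluster is nearly absent from WT and DKO, so the same cells could not be set beside another genotype.

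In the globin-led cluster, Isg20 stood at 268 CPM against 17.3 in the other KO cells, a 15.5-fold difference (14.6 to 16.4). Zbp1 stood at 132 against 10.4 CPM (12.7-fold) and Iigp1 at 101 against 8.18 (12.3-fold). Isg15 stood at 265 against 28.9 CPM, 9.14-fold higher (8.70 to 9.62). These 4 genes were the highest ratios among members with a mean of at least 20 CPM over the pair. Only Isg15 of the 4 had at least 20 CPM in the other KO cells. The others passed through the globin-led cells, where they are high, so this ranking is no support. Ifit1 (51.9 against 6.16 CPM), Irf7 (114 against 14.4), Gbp2 (60.2 against 7.60), Igtp (91.8 against 16.7) and Irgm1 (69.4 against 16.2) were each over 4-fold higher. Each of them was also below 20 CPM in the other KO cells. Cxcl10, below that mean, stood at 26.6 against 1.80 CPM. Bst2 (199 against 190.2 CPM), Ifi27l2a (29.2 against 27.3), Gbp3 (39.4 against 30.8) and Ifi203 (73.5 against 91.8) differed by less than 1.5-fold, and Slfn2, below that mean, was lower at 3.29 against 14.7 CPM.

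By role, the ratio of the globin-led cluster to the other KO cells was 3.55 for GTPases (3.46 to 3.64), 3.48 for transcription factors and feedback, 3.30 for effectors, 2.18 for sensors and 1.98 for the other members. The interferon receptor genes, which are no members, were not at least 1.5-fold higher there: Ifnar1 stood at 11.8 against 15 CPM, Ifnar2 at 29.6 against 45.4 and Ifngr1 at 74.9 against 82.3. Ifnar2 was at least 1.5-fold lower there, at 0.653 times the level of the other KO cells (0.591 to 0.720). The wider interferon list holds 55 further genes of the table, 32 of them with a mean of at least 20 CPM over the pair. Of these, 16 were higher (background 15.1%) and 4 lower (background 11.8%), the 4 being Ifitm1, Ly6a, Ly6c2 and Tor3a. Some passed that minimum only through the globin-led cells, such as Cmpk2 (6.71 CPM in the other KO cells) and Pml (17.7). This count too is no support. The summed level of that list was 5499 CPM in the cluster and 6756 in the other KO cells. Ly6a, the gene of the Sca-1 antigen used in the sort, stood at 37.8 CPM there and Kit at 39.1, against 85.1 and 41.5 in the whole KO library.

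Markers of other cells were present at lower levels than those of erythroid cells in the globin-led cluster, where the 11 erythroid markers summed to 6863 CPM. Macrophage markers summed to 1.97 CPM, with 5 of 7 listed genes at 0, among them C1qa, C1qb and C1qc. Megakaryocyte markers summed to 647 CPM, monocyte-dendritic markers to 252 and neutrophil progenitor markers to 256, each with 0 listed genes at 0, and their part in the members' levels was not tested. Elane, which can reach all cells as free RNA, stood at 32.9 CPM there, against 2252 in neutrophil progenitor-like KO cells. Among the KO classes Isg15 was lowest in those neutrophil progenitor-like cells, at 14.2 CPM, so the members' levels differed between classes of the same library. Median depth was 14471 UMIs per cell in the globin-led cluster and 17319 in the KO library.

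**Figure D2:**
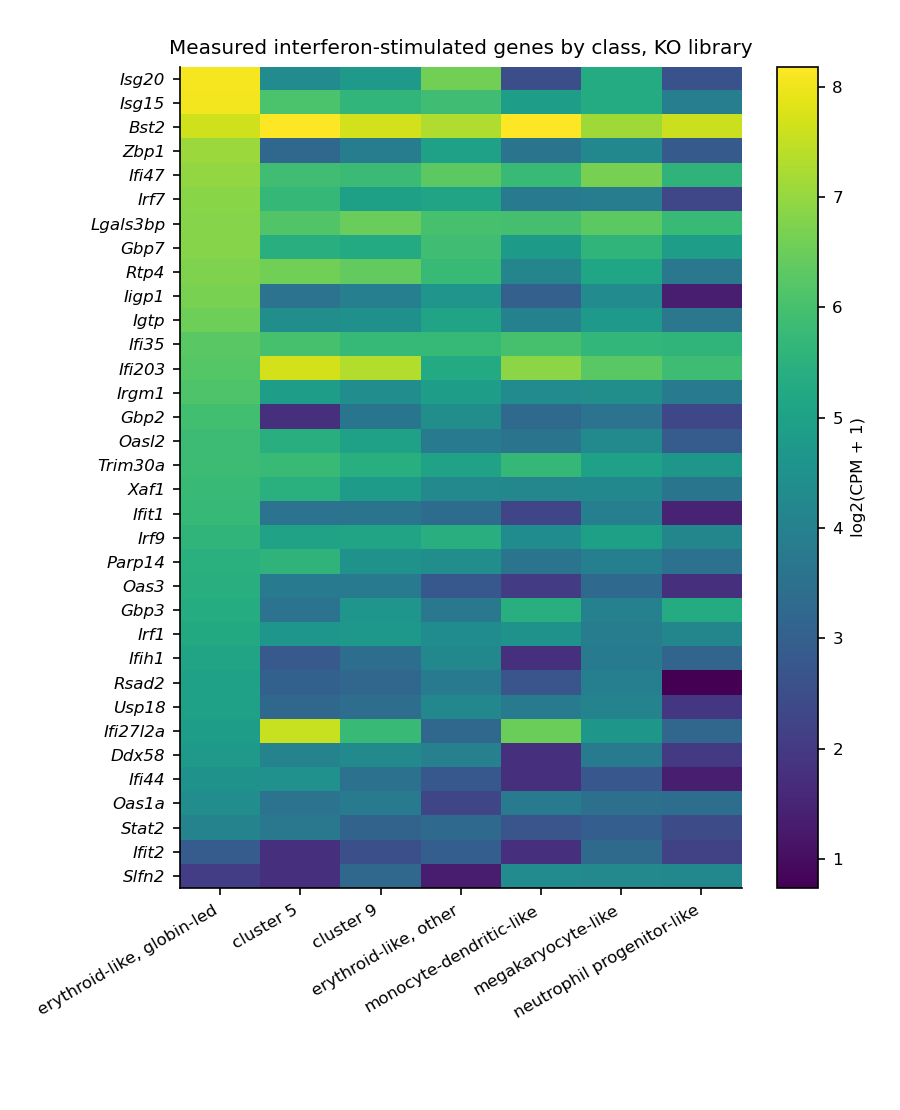
Levels of the 34 measured members, as log2(CPM + 1), in the classes with at least 50 KO cells, ordered by summed level. The globin-led erythroid-like cluster is brightest for Isg20, Isg15, Zbp1, Irf7 and Iigp1, while Bst2, Ifi203 and Ifi27l2a are brightest in other classes and neutrophil progenitor-like cells are darkest for most genes.

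The other KO classes with at least 50 cells held lower summed levels, the highest of them cluster 5 at 1599 CPM (60 cells). Of classes with fewer KO cells, lymphoid-primed-like cells came nearest, at 2354 CPM (2188 to 2529, 33 cells). Cluster 1 stood at 2113 CPM (9 cells), cluster 12 at 1921 (29 cells) and stem cell-like cells at 1906 (25 cells). Mature neutrophil-like cells were lowest at 505 CPM (48 cells). The 132 other erythroid-like KO cells, whose cluster has Car1 and Klf1 but no globin gene among its top genes, stood at 1098 CPM. The globin-led cells were 2.37-fold higher (2.27 to 2.48), with 25 of 28 members higher (background 12.3%) and 0 lower (background 3.52%). With the minimum set on the other erythroid-like cells alone it was 15 of 18 higher (background 9.32%) and 0 lower (background 4.88%). Neutrophil progenitor-like KO cells, 1428 in number and 45.9% of KO UMIs, stood at 693 CPM and gave 27.1% of the members' UMIs. Against them the globin-led cells were 3.76-fold higher (3.71 to 3.82), with 22 of 25 members higher (background 18%) and 0 lower (background 17%). Of those 25, 17 passed only through the globin-led cells, and with the minimum set on the neutrophil progenitor-like cells it was 5 of 8 higher (background 10.4%) and 0 lower (background 21.5%). A cluster of 1508 KO cells led by Vldlr, Ifitm1 and Ly6a and drawn to 97.4% from KO stood at 1256 CPM, with Rtp4 at 82.5 CPM and Isg15 at 49.0. Its level of Ly6a, 207 CPM, was far above that of the globin-led cluster, whereas its level of Isg15 was far below.

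Leaving out the globin-led cluster, a setting chosen after seeing the data, took the summed KO/WT ratio from 1.18 to 0.927. Then 2 of 34 members (Slfn2 and Zbp1) were at least 1.5-fold higher (background 7.51%) and 8 lower (background 19.2%). The median log2 KO/WT ratio was -0.15 for the members and -0.11 for all genes, so the members lay close to the level of all genes. The DKO/KO ratio became 1.22, with 8 higher (background 20%) and 1 lower (background 6.04%), and medians of 0.38 and 0.17. Isg20 took a KO/WT ratio of 0.920, Iigp1 0.653 and Igtp 0.916, while Isg15 stood at 1.11, Ifit1 at 1.10, Oas3 at 1.07 and Irf7 at 1.18. Slfn2, which passed the 5 CPM minimum only through KO, stood at 3.12. The remaining KO cells were still of another mix than WT: without all erythroid, neutrophil and B lineage classes, the KO/WT ratio of the sum was 1.20, with 9 members higher (background 2.01%) and 1 lower (background 7.35%). That setting keeps the cluster led by Vldlr, Ifitm1 and Ly6a, with 1508 KO cells and 25 WT cells, so unlike cells are still compared.

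**Figure D3:**
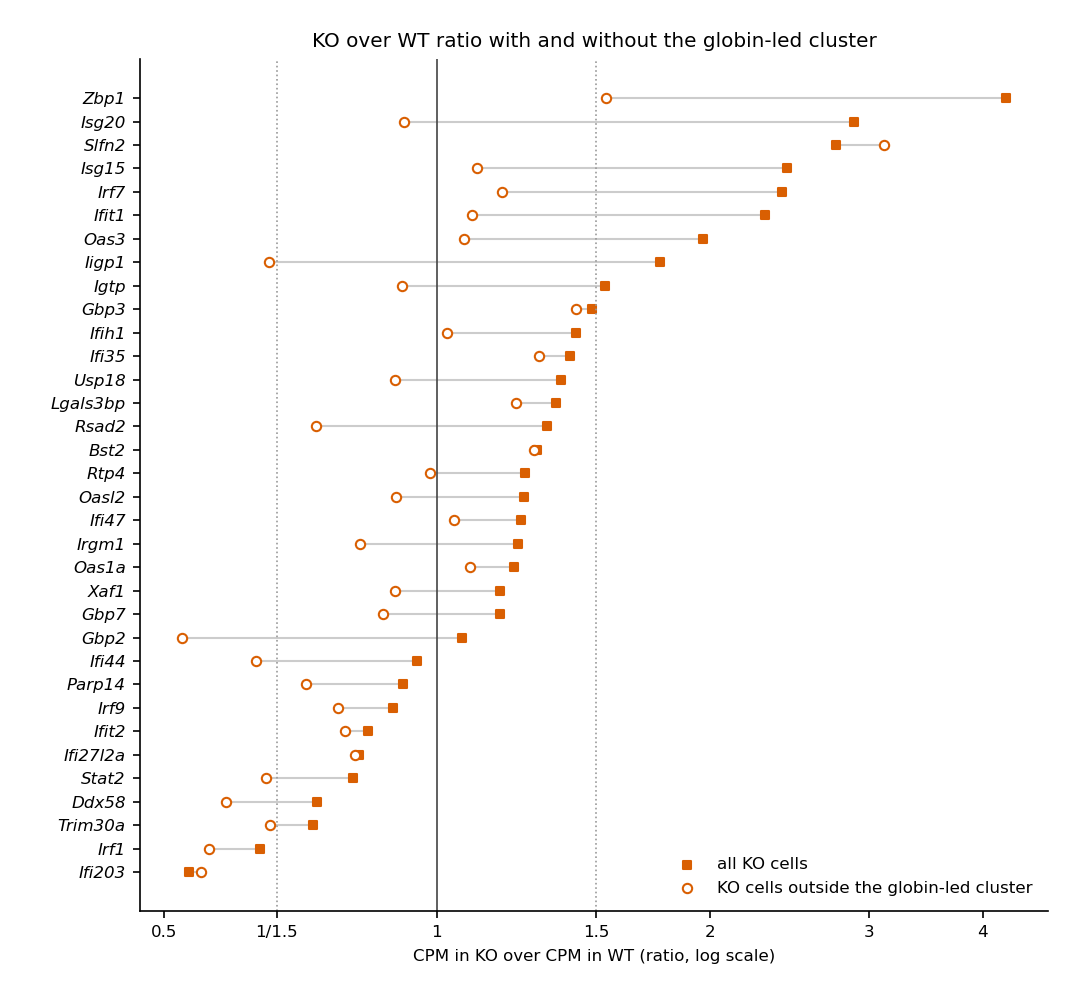
KO over WT ratio of each of the 34 measured members (log scale) over all KO cells (squares) and over KO cells outside the globin-led cluster (circles), with WT and KO both taken without it; dotted lines mark 1.5-fold in each direction. Isg20, Iigp1 and Igtp move from above 1.5 to below 1, and Slfn2 and Bst2 hardly move.

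Within a class the summed level was higher in KO than in WT wherever both had at least 50 cells. There were 3 such classes. In megakaryocyte-like cells (505 WT, 549 KO and 1215 DKO cells) it was 786 CPM in WT, against 1016 in KO and 959 in DKO, 1.29-fold above the WT level in KO (1.25 to 1.34). Most of the WT and DKO cells of that class lay in 1 of its 2 clusters (342 and 691 cells), and KO cells were split nearly evenly (271 and 278). In monocyte-dendritic-like cells (77, 52 and 129 cells) it was 749, 1099 and 910 CPM, a KO/WT ratio of 1.47 (1.35 to 1.59). In cluster 5, unnamed and led by the lymphoid genes Ly6d, Il7r and Dntt (646, 60 and 214 cells), it was 1064, 1599 and 1227 CPM, a ratio of 1.5 (1.42 to 1.59). Each of the 3 classes had the order KO, DKO, WT from high to low. Without the KO cell of the highest member share the KO/WT ratios were 1.23, 1.34 and 1.47, and the DKO/KO ratio of megakaryocyte-like cells was 0.994.

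Isg15 was the only member at least 1.5-fold higher in KO than in WT in all 3 of these classes, and in 2 of them this rested on 1 cell. It stood at 22.6, 38.7 and 26.9 CPM in WT, KO and DKO megakaryocyte-like cells, at 17.4, 29.1 and 11.9 in monocyte-dendritic-like cells and at 26.7, 66.2 and 29.6 in cluster 5. Without the KO cell of the highest member share in each class, a check added after seeing the data, its KO/WT ratio was 1.46 in megakaryocyte-like cells and 1.10 in monocyte-dendritic-like cells, both under 1.5-fold, and 2.38 in cluster 5. Of members with a mean of at least 20 CPM over the pair, 2 of 12 were higher in megakaryocyte-like KO cells (background 1.63%) and 0 lower (background 2.46%). In monocyte-dendritic-like cells 5 of 12 were higher (background 8.55%) and 0 lower (background 7.3%), and in cluster 5 it was 9 of 17 higher (background 2.43%). Rtp4, a chaperone of taste and opioid receptors that is induced by interferon, was higher in megakaryocyte-like cells (14.7 to 33.9 CPM from WT to KO) and in cluster 5 (36.3 to 96.3). Ifi27l2a, a mitochondrial protein gene, was higher in monocyte-dendritic-like cells (46.4 to 90.6 CPM) and in cluster 5 (77.5 to 188). Without that KO cell the counts were 1 of 12 (Rtp4) in megakaryocyte-like cells, 3 of 11 (Gbp7, Ifi27l2a and Lgals3bp) in monocyte-dendritic-like cells and 9 of 17 in cluster 5. The 1 member lower in KO was Irf1, in cluster 5 (background 8.55%). Some members passed the 20 CPM minimum only through KO, where they are high, such as Rtp4 in megakaryocyte-like cells. These counts are therefore no support.

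DKO cells of a class lay above WT cells of the same class in 12 of 12 classes and clusters with at least 50 cells in both, with summed ratios from 1.10 to 1.49. Stem cell-like cells had the largest ratio, at 1157 CPM in WT (1184 cells) and 1725 in DKO (265 cells), 1.49-fold (1.44 to 1.55), with 12 of 22 members higher (background 6.11%) and 0 lower (background 3.61%). Lymphoid-primed-like cells stood at 1313 and 1753 CPM, 1.34-fold (1.29 to 1.38), with 5 of 22 higher (background 3.24%) and 0 lower (background 2.2%). Irf7 stood at 14.5 CPM in WT and 42.2 in DKO stem cell-like cells, and at 21.7 and 70.8 in lymphoid-primed-like cells. In stem cell-like cells Irf7 passed the minimum of 20 CPM over the pair only through DKO, where it is high. Such counts are therefore no support. KO had 25 and 33 cells of these classes, too few to compare.

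Ifi47 was the member most often higher in DKO than in WT, at least 1.5-fold in 9 of the 12, followed by Rtp4 in 8, Lgals3bp in 6 and Gbp3 in 5. Ifi47 stood at 58.9 and 116 CPM in stem cell-like cells, at 81.8 and 138 in megakaryocyte-like cells and at 44.4 and 98 in cluster 13, an unnamed cluster led by immediate early genes. Isg15 was higher in 2 of the 12 (clusters 4 and 18) and lower in 1 (cluster 11).

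Of the other clusters, 8 of 20 members were higher in DKO than in WT in cluster 18 (background 9.6%) and 0 lower (background 5.72%). Without 1 DKO cell of that cluster, which held 82 member UMIs of 6344, the summed ratio there was 1.21 and not 1.36, with 5 of 18 higher, and Isg15 stood at 0.929 times the WT level. It was 6 of 22 higher in cluster 11 (background 7.56%) and 2 lower, Irgm1 and Isg15 (background 4.56%). Members were higher and 0 lower in 5 more unnamed clusters: 4 of 21 in cluster 1 (background 8.82% higher, 5.06% lower), 3 of 16 in cluster 12 (2.61%, 0.881%), 5 of 12 in cluster 13 (3.43%, 2.59%), 2 of 11 in cluster 2 (2.12%, 1.31%) and 4 of 14 in cluster 4 (2.76%, 1.39%). The same was so for 4 of 16 members in cluster 5 (3.06%, 3.88%), 2 of 12 in megakaryocyte-like cells (2.64%, 0.829%) and 4 of 10 in monocyte-dendritic-like cells (5.58%, 2.92%). The shares in parentheses are those of all genes measured in that class. Members could pass the 20 CPM minimum through the library where they are high, as Isg15 did in cluster 4, so these counts are no support. The 12 values share the same pair of libraries and are not independent, and their sex differs throughout.

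DKO lay below KO in 4 of the 5 classes where both had at least 50 cells. The ratios were 0.944 in megakaryocyte-like cells, 0.828 in monocyte-dendritic-like cells, 0.768 in cluster 5 and 0.786 in the other erythroid-like cells. Neutrophil progenitor-like cells had the reverse order, at 693 CPM in KO and 790 in DKO (55 cells), a ratio of 1.14 (1.07 to 1.21), with 2 of 8 members higher, Gbp3 and Ifi47 (background 7.58%), and 0 lower (background 6.51%). In cluster 5, 9 of 20 members were lower in DKO (background 4.61%) and 1 higher, Gbp3 (background 12.6%). Monocyte-dendritic-like cells had 4 of 12 lower (background 6.16%) and 2 higher (background 9.18%), with 2 of 11 lower without 1 KO cell, and megakaryocyte-like cells 0 of 12 in either direction (background 5.3% higher, 1.21% lower). In the other erythroid-like cells, 5 of 15 members were lower in DKO (background 1.36%) and 0 higher (background 8.58%): Ifi203, Irf7, Isg15, Rtp4 and Zbp1. Members could pass the 20 CPM minimum through KO alone, as Isg15 did in monocyte-dendritic-like cells, so these counts are no support.

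**Figure D4:**
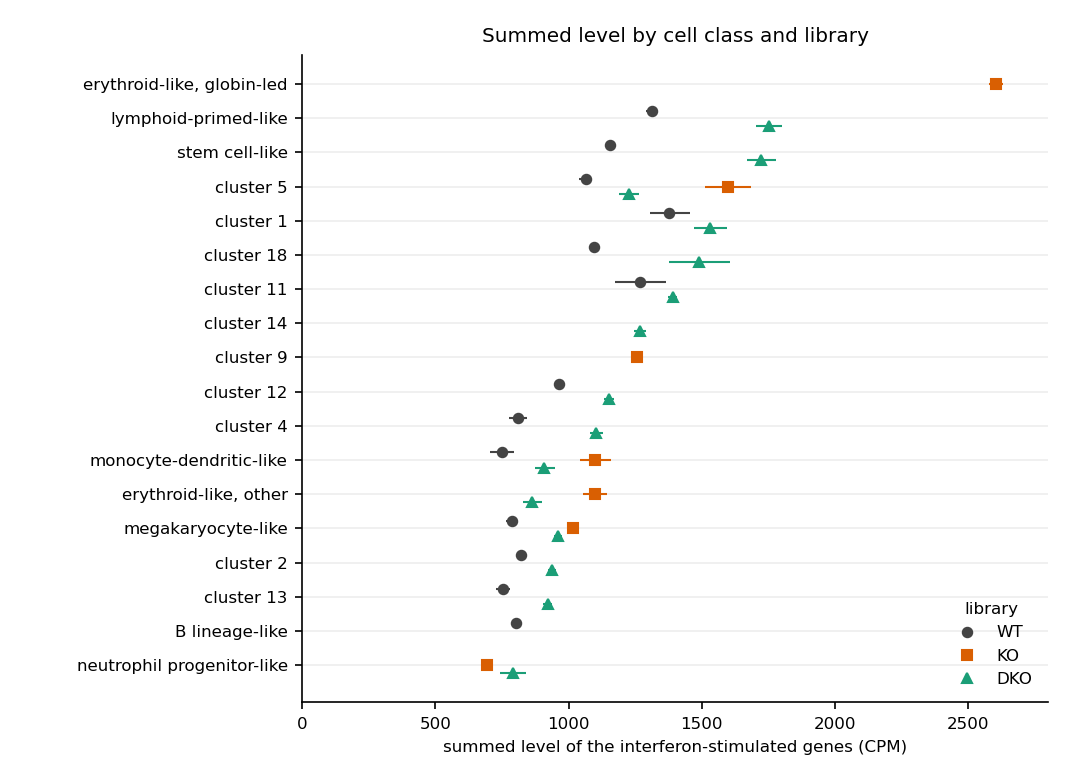
Summed level of the members (CPM) in each class or unnamed cluster with at least 50 cells of a library, by library, with exact 95% Poisson intervals. DKO points lie right of WT points in every row that has both, KO points lie right of WT and DKO in 3 shared rows, and the globin-led cluster, at 2606 CPM, stands apart.

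Spread across cells was examined at equal depth, with each cell thinned to 5000 UMIs, which left out 411 WT, 0 KO and 65 DKO cells. The summed UMIs per cell had a median of 5 in each library, and means of 5.31 in WT, against 6.93 in KO and 6 in DKO. The 95th percentile was 12, 19 and 13, and the variance over the mean 3.17, 7.03 and 3.02. KO stood above the others in its upper tail. WT and DKO had similar tails (99th percentile 19 in each) and differed in the middle, where 51.0% of WT and 60.3% of DKO cells held at least 5 UMIs and 2.31% and 0.961% held none. Without the globin-led cluster, the KO variance over the mean was 3.80 and the 95th percentile 13. The globin-led cells alone had a median of 10 UMIs, a range from 1 to 86 and a variance over the mean of 8.46, and 0 of them were without a UMI of the members.

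Cells with at least 20 summed UMIs were 73 of 7736 in WT (0.944%, exact Clopper-Pearson interval 0.740 to 1.19), 214 of 4920 in KO (4.35%, 3.80 to 4.96) and 79 of 8119 in DKO (0.973%, 0.771 to 1.21). Of the 214 KO cells, 171 (79.9%) lay in the globin-led cluster, where they were 17.3% of cells. Outside that cluster, 43 of 3933 KO cells (1.09%) passed this threshold. Among neutrophil progenitor-like KO cells the count was 0 of 1428, which allows a share of up to 0.210%. The threshold has no natural place: 63 KO cells lay at 18 or 19 UMIs and 48 at 20 or 21.

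Single cells far above the rest occurred in every library and in several classes. The highest WT cell, megakaryocyte-like, held 85 of 5000 UMIs in 29 members, led by Bst2 (12 UMIs) and Zbp1 (10). The highest KO cell, also megakaryocyte-like, held 124 UMIs in 26 members, led by Rsad2 (21), Isg15 (16) and Ifit1 (11). The highest DKO cell, in cluster 12, held 124 in 30 members, led by Ifit1 (27), Rsad2 (25) and Isg15 (15). In these 3 cells many members were present together, where the median cell of each library held 5 UMIs of the whole list.

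**Figure D5:**
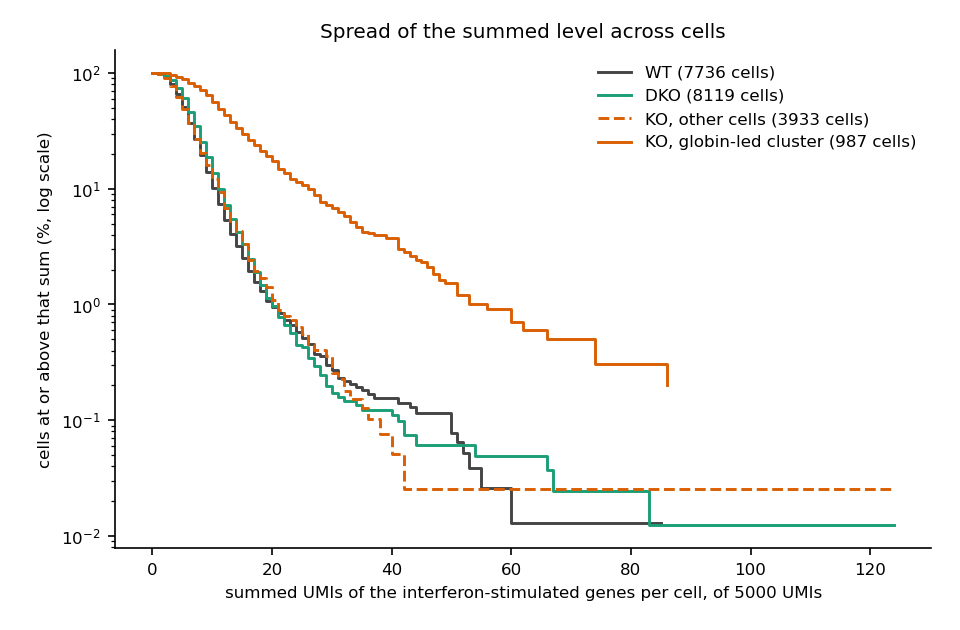
Share of cells (%, log scale) with at least a given summed count of the members' UMIs among 5000 UMIs, for WT, DKO, the globin-led KO cluster and the other KO cells. The lines of WT, DKO and the other KO cells run close together up to about 20 UMIs, where each is near 1%, and the globin-led line lies above them with 17.3% at 20 UMIs.

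The share of cells with at least 1 UMI at that depth was highest for Bst2 at 50.1% in WT, against 57.3% in KO and 51.7% in DKO (72.2%, 91.2% and 81.0% unthinned). For Isg15 it was 10.4% in WT (9.73 to 11.1), against 20.6% in KO (19.5 to 21.7) and 12.6% in DKO (11.9 to 13.4), with unthinned shares of 17.7%, 42.5% and 25.4%. For Zbp1 it was 3.35%, 13.7% and 5.05% (unthinned 6.08%, 28.2% and 11.5%). No class of these libraries lacks the interferon program, so no share of free RNA could be set for these genes, and a cell without a UMI may still express the gene.

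Members varied together across cells to differing degrees. The correlation of a member with the summed other members, a description over 7736 WT, 4920 KO and 8119 DKO thinned cells that share library and depth, was highest for Isg15 (Pearson r = 0.38 in WT, against 0.62 in KO and 0.38 in DKO). Rtp4 (0.37, 0.40 and 0.31), Irf7 (0.33, 0.45 and 0.29) and Iigp1 (0.32, 0.51 and 0.23) followed in WT. Of the measured members, Ifit2 (0.03 in WT), Stat2 (0.05) and Ifi35 (0.07) were least related to the rest. Among genes that are no members, with a mean of at least 20 CPM, those most like the summed level in WT included Ifitm3 (r = 0.32), Ly6a (0.30), Shisa5 (0.22), Mndal (0.22), B2m (0.21), Ube2l6 (0.21), Ifitm1 (0.20), mt-Co1 (0.20) and Malat1 (0.18). In KO, Ifitm1 had the opposite sign at -0.13, while B2m reached 0.47 and Ube2l6 0.40.

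Other genes of the pathway differed less uniformly. The 10 listed interferon genes themselves, such as Ifnb1 and Ifng, were not analysed here. Of the measured receptor and signalling genes, Ifngr1 was among those at least 1.5-fold higher in KO than in WT, and Ifnar1 and Jak1 were lower. Of 11 measured inhibitors, Cish, Irf2 and Trim24 were lower in KO and 0 higher, where 17.7% of all genes were lower and 7.56% higher. Of 13 measured genes that act in interferon induction, Myd88 was higher and Irf5 lower. Of 44 measured genes on the wider list, 8 were higher (among them Cmpk2, Ifi30, Ifitm1, Ifitm3, Ly6c2, Oasl1 and Psmb10) and 6 lower (Epsti1, Mndal, Phf11b, Shisa5, Slfn8 and Trim30d). In DKO against WT, 7 of these 44 were higher (Dhx58, Ifi27, Ifi30, Ly6c2, Oasl1, Parp12 and Tap1) and 2 lower (Helz2 and Znfx1). The background there was 3.87% higher and 3.34% lower, so the lower count is near the share of all genes. In that comparison 0 of the 10 measured receptor and signalling genes passed 1.5-fold in either direction, which is also near those shares.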

How the data were processed

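UMI counts, whole numbers per gene and cell, were taken from the table the authors deposited after their own choice of cells. A second deposited table gives the natural log of (1 + 10000 × count / cell total), checked at 69176581 nonzero entries within 0.001, and was not used further. Tools named in the submitters' processing notes are bcl2fastq, Cell Ranger and Seurat, and the build is mm10, with no versions or roles.

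Counts were summed per library, or per library and class, and divided by the total UMI count (CPM). Levels carry exact Poisson, ratios exact conditional binomial and shares exact Clopper-Pearson 95% intervals. A gene was called at 1.5-fold with a mean of at least 5 CPM over the libraries (within classes, 20 CPM over the pair). Depth of each cell limits detection of low members. The members, lists, naming and class rules were chosen with earlier results of these data known. Full values are given for the up to 4 most abundant members of each role and for members past 1.5-fold, other members more briefly, and of other lists the genes past 1.5-fold.

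Clustering used scanpy 1.11.5 in Python 3.11.15 (2000 variable genes without members, the wider interferon list, sex-linked, mitochondrial, ribosomal, histone and cell cycle genes, 30 components, 20 neighbours, Leiden resolution 1). A class needed 3 markers among its cluster's top 15 genes and a lead of 2. Scrublet called 0.147%, 0.894% and 0.0489% of WT, KO and DKO cells as doublets. That was too few for use and no cell was removed, while an alternative removed the highest scores (531, 194 and 536 cells). Other alternatives were TMM (edgeR 4.0.16) and DESeq2 1.42.0 size factors, equal weight per cell, equal depth, thresholds, class filters, WT class shares and other clusterings, with filters on the reference cells and single cells left out added after seeing the data. Calls and thinning were checked on simulated counts. Promoters and motifs came from RefSeq windows on GRCm38.p6. Some genes of the lists are not reported here.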

Additional observations from a re-analysis of the deposited data

Results flagged for a closer look

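Isg15 differed in direction between clusters in DKO against WT. It was 1.85-fold higher in DKO in cluster 4, an unnamed cluster led by DNA replication genes (17.1 CPM in WT, 31.5 in DKO), and stood at 0.642 times the WT level in cluster 11, an unnamed cluster drawn to 96.0% from DKO (55.7 CPM in 65 WT cells, 35.7 in DKO). Without 1 of the WT cells of cluster 11 that ratio was 0.755, and without 1 DKO cell of cluster 4 the other was 1.67. With 1 library per genotype, the difference was not tested.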

How the results depend on the processing

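No paired analysis was possible because there is 1 library per genotype. The summed KO/WT ratio (1.18) was 1.31 with TMM, 1.33 with DESeq2 size factors, 1.30 with equal weight per cell, 1.30 at equal depth, 1.20 without erythroid, neutrophil and B lineage classes, 1.43 at WT class shares (over 3 classes with 15.1% of WT and 13.4% of KO cells), 1.16 without Bst2, 1.32 without the 3 most abundant members, and 0.927 without the globin-led cluster. In the same order the DKO/KO ratio (0.955) was 0.835, 0.831, 0.860, 0.865, 0.923, 0.826, 0.988, 0.885 and 1.22. The DKO/WT ratio (1.13) was 1.10 with TMM, 1.10 with DESeq2 size factors, 1.12 with equal weight, 1.11 without those classes, 1.18 at WT class shares, 1.15 without Bst2 and 1.17 without the 3 most abundant members.

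Counts for KO/WT (9 higher, 2 lower) were 14 and 1 with TMM and with size factors, 16 and 0 at WT class shares, 2 and 8 without the globin-led cluster, 1 lower without those 3 kinds of class, 4 higher at 20 CPM and 0 lower at 2-fold. Counts for DKO/KO (3 higher, 6 lower) were 0 higher with TMM, size factors, equal weight, equal depth and 2-fold, 5 higher at 1 CPM, 6 higher with no minimum, 12 lower at WT class shares, 2 lower at 20 CPM, and 8 higher and 1 lower without the globin-led cluster. For DKO/WT (5 higher, 0 lower) they were 2 lower with TMM, 1 lower with size factors, equal weight, the class filter, the doublet filter and WT class shares, 8 higher at WT class shares, 3 higher at 20 CPM, 9 higher with no minimum and 0 higher at 2-fold.

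Without the globin-led cluster the median log2 ratio was -0.15 for KO/WT (all genes -0.11) and 0.38 for DKO/KO (all genes 0.17), the KO/WT ratio 0.920 for Isg20, 0.653 for Iigp1 and 0.916 for Igtp, and the DKO/KO ratio 1.28 for Ifit1, 1.56 for Isg20 and 1.16 for Oas3. At WT class shares, Ifi203 had a KO/WT ratio of 1.10 and a DKO/KO ratio of 0.740, and Isg20 a DKO/KO ratio of 1.03. Without erythroid, neutrophil and B lineage classes, Ifi203 had a DKO/KO ratio of 0.972. By class, the DKO/WT ratio of stem cell-like cells (1.49) was 1.41 at resolution 0.6, 1.38 at 1.5 and 1.17 with clusters made with interferon genes. That of lymphoid-primed-like cells (1.34) was 1.39 and 1.18 at those resolutions, and the DKO/KO ratio of megakaryocyte-like cells (0.944) was 0.911 at 0.6. Monocyte-dendritic-like cells had no value at other clusterings. At own depth, the share of KO cells with the members above 0.4% of UMIs was 3.76% (4.35% at equal depth). Of checks added after seeing the data, leaving out the cell of the highest member share moved the summed KO/WT ratio to 1.23 (megakaryocyte-like, KO cell; from 1.29) and 1.34 (monocyte-dendritic-like, KO cell; from 1.47). It moved DKO/KO to 0.994 and 0.905 in those classes (KO cell) and DKO/WT to 1.26 (megakaryocyte-like, WT cell), 1.19 (cluster 11, WT cell) and 1.21 (cluster 18, DKO cell). With the 20 CPM minimum set on the reference cells, 8 members were higher in the globin-led cluster than in all other KO cells (22 by the pair mean), 5 than in neutrophil progenitor-like cells (22) and 15 than in other erythroid-like cells (25). The cause of these moves was not tested.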

Other observations

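Some genes of the wider list differed in the globin-led cluster. They were chosen after their values were seen. Psmb9, an immunoproteasome subunit, stood at 428 CPM there against 228 in the other KO cells, and the peptide transporter gene Tap1 at 138 against 64.5. Psmb8, another immunoproteasome subunit, had the reverse order at 511 against 702 CPM. Samhd1, a nucleotide hydrolase that limits viral replication, stood at 82.4 against 30.2 CPM, Pml at 51.2 against 17.7 and Cmpk2, a mitochondrial nucleotide kinase, at 62.8 against 6.71.

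Of 6 measured genes that act in interferon induction, 0 were higher in the globin-led cluster and 3 lower, where 15.1% and 11.8% of all genes were: Tmem173, which encodes the DNA sensor adaptor STING, stood at 2.69 against 45.0 CPM, Irf8 at 2.96 against 85.4 and Myd88 at 16.9 against 27.4. These 3 passed the 20 CPM mean only through the other KO cells, where they are high, so this count is no support. Mavs, below the 20 CPM mean, stood at 20.8 against 9.83 CPM, and Irf3 at 52.1 against 48.9. Jak2 was at 27.7 against 8.99 CPM and Socs3 at 2.10 against 17.5. These values compare cells of 1 library and carry no test.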
